A study of Rattus norvegicus with 6 samples.

Results

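The integrin, laminin and basal lamina genes were followed by RNA sequencing in RSC96, a line of immortalised Schwann cells from the rat. They are the 47 rows, of 16849 genes in the count table, whose symbol is an integrin alpha chain (17 genes), an integrin beta chain (8), a laminin chain (10), a collagen IV chain (6) or one of the linking genes Nid1, Nid2, Hspg2, Agrn, Dag1 and Fn1 (6). Membership rests on the symbol alone, but this set of symbols was chosen with earlier results of these data known. The first group, PVDF@PDA, is labelled as hypoxia with a piezoelectric material. The second, PCL@PDA, is labelled as hypoxia with a non-piezoelectric material, although a free-text line of these libraries gives the PVDF@PDA name; the grouping here follows the titles. The third is Control. Each group has 2 libraries, replicate 1 from the labelled batch 1 and replicate 3 from batch 3, and values per library are given in that order. All cells are wild type by label. The hypoxia model was 24 h in medium conditioned by macrophages, and whether Control cells received that medium is not stated, so a difference from Control is one between whole conditions. The submitters' design text gives the piezoelectric effect under hypoxic stress as the question. The comparison of the materials bears on it, but PVDF@PDA and PCL@PDA are different materials. A difference between them would not tell the piezoelectric effect apart from other properties of the materials.

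Schwann cells sit on a basal lamina that they secrete themselves. Laminins are trimers of an alpha, a beta and a gamma chain that polymerise on the cell surface, nidogens and perlecan tie the laminin layer to a collagen IV network, and integrins and dystroglycan are the receptors that hold the cell to it. In peripheral nerve the laminins with the alpha 2 and alpha 4 chains, together with the integrins alpha 6 beta 1, alpha 6 beta 4 and alpha 7 beta 1 and with dystroglycan, are known for their part in axon sorting and myelination.

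Between 32760123 and 35389307 reads were counted per library, so that 3 counts correspond to 0.0848 to 0.0916 CPM, the count scaled to a common library size. Replicates were less alike in PCL@PDA (10.2 as chi-square over its degrees of freedom) than in PVDF@PDA (4.80) or Control (5.56). PCL@PDA replicate 3 stood apart from both PVDF@PDA libraries (12.5 and 12.8), whereas PCL@PDA replicate 1 differed from PVDF@PDA replicate 1 by only 4.42. Of 14 Schwann cell markers 13 were in the table, and S100b, Mbp, Ngfr, Gfap and Cdh19 were below 1 CPM in all 6 libraries, so these defining markers of the labelled cell type were at or near 0. The summed level of that list was 227 to 239 CPM in the material groups and 194 to 206 CPM in Control, carried mainly by Ncam1 and Pmp22. Of 9 fibroblast markers 7 were in the table, with a sum of 205 to 222 CPM in the material groups and 182 to 189 CPM in Control, mainly Thy1, while Dcn had at most 0.0300 CPM. Pdgfra had 27.3 to 32.6 CPM in the material groups and 18.6 to 19.6 CPM in Control. For Col1a1 these ranges were 20.1 to 21.1 CPM and 12.3 to 13.3 CPM, whereas Thy1 in the material groups overlapped Control. Macrophage and leukocyte markers (9 of 14 in the table) summed to 7.91 to 9.02 CPM in the material groups and 8.03 to 8.28 CPM in Control, with Ptprc and Aif1 at or below 0.0292 CPM. Endothelial markers (7 of 8) summed to 12.1 to 15.5 CPM in the material groups and 11.5 to 13.8 CPM in Control. The Schwann cell and fibroblast lists thus moved with the contrasts against Control, and their part in the results below was not tested. In RNA from whole cultures, fewer cells of a type and less RNA per cell cannot be told apart.

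Of the 47 genes 34 had enough counts to be tested and 13 did not. Those 13 were Col4a1, Col4a2, Col4a3, Col4a4, Col4a6, Itgam, Itgad, Itga4, Itgal, Itga9, Itgb2, Itgb3 and Lama1, each with at most 10 counts in any library. Of the tested genes 30 reached the count minimum in all 6 libraries, and Itga10, Itgb6, Itgb7 and Lama2 did not. Levels of different genes are compared below as FPKM, the deposited counts per gene length and library total, and groups are compared as scaled CPM.

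**Figure D1:**
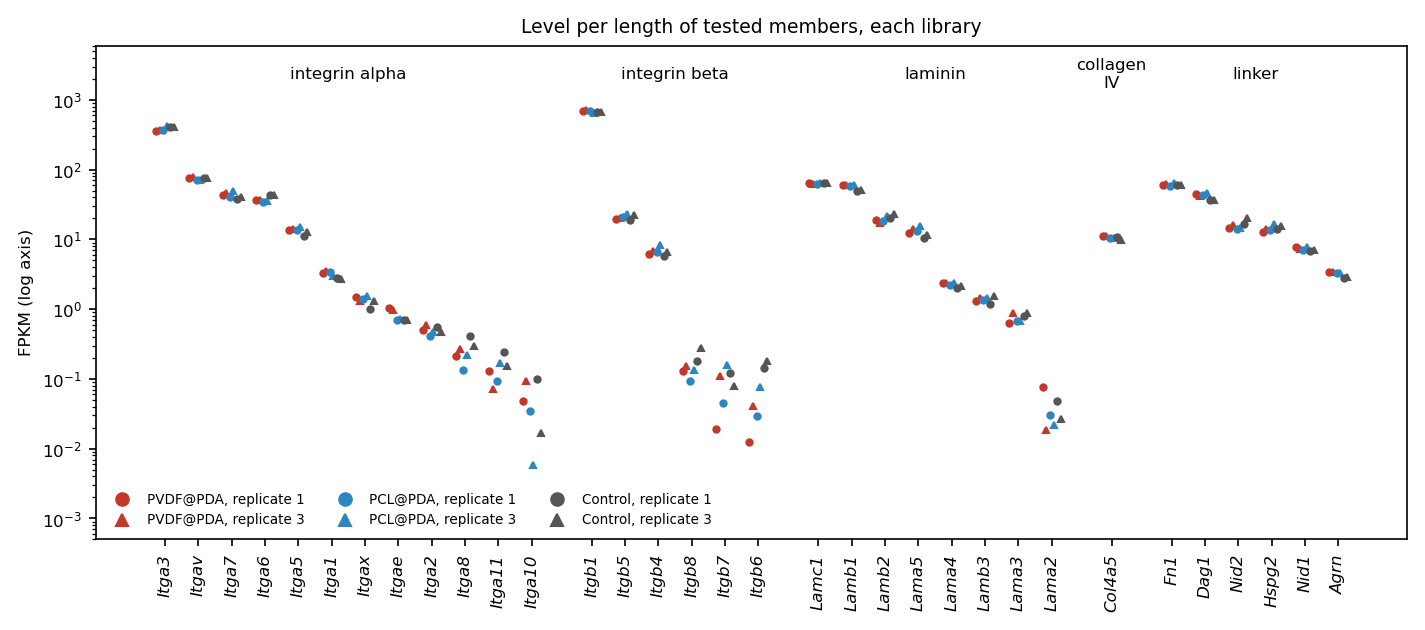
Level of 33 of the tested genes in FPKM (log axis) in every library, ordered within each family by mean; colours are groups, circles replicate 1 and triangles replicate 3. Itgb1 (mean 679 FPKM) and Itga3 (389 FPKM) stand highest, Itgb6, Itgb7, Itga10 and Lama2 lie below 0.2 FPKM, and for most genes the 6 points lie close together.

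No member was called between PVDF@PDA and PCL@PDA, 10 were called between PVDF@PDA and Control and 7 between PCL@PDA and Control, by the edgeR quasi-likelihood test at an adjusted p below 0.05 over all 13018 genes tested. In PVDF@PDA, 4 genes rose (Dag1, Itga1, Lama5 and Lamb1) and 6 fell (among them Itga3, Itga6, Itgb6, Lamb2 and Nid2) against Control. That is 29.4% of the tested members, against 15.7% of all tested genes, of which 6.79% were called higher and 8.9% lower. In PCL@PDA, 4 rose (Dag1, Itga5, Lama5 and Lamb1) and 3 fell (among them Itga6 and Nid2) against Control, or 20.6% of the tested members against 20.1% of all tested genes, of which 8.77% were called higher and 11.3% lower. Between the materials 0.0615% of all tested genes were called, 0.0538% higher and 0.00768% lower. All 17 calls had the same direction in both batches, which the calls largely fix in advance, as both rest on the same libraries. The changes went both ways and most were small: the median log2 difference of the 34 tested members was 0.01 for PVDF@PDA minus Control and -0.04 for PCL@PDA minus Control, and over all tested genes it was 0.01 in both. Of the members reaching the count minimum in every library, 9 were called for PVDF@PDA and 7 for PCL@PDA against Control. These counts leave out Itgb6, which entered the test only through Control, where it was highest.

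These counts depend on single libraries. For PVDF@PDA against Control, fewer members were called when a PVDF@PDA or Control library was left out. Fewer of all tested genes were called in those fits too, each of which left 1 library in a group. For PCL@PDA against Control, the fit with the batch as a replicate block called 11 genes, adding Itga3, Itgav, Itgax and Itgb4, and scaling by library totals alone gave 6 higher and 2 lower in place of 4 and 3. On the deposited FPKM, limma on log2(FPKM + 1) called 0 members for PVDF@PDA and 1, Itga6, for PCL@PDA against Control. Both contrasts share the Control libraries, so they are given side by side and not as independent results.

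**Figure D2:**
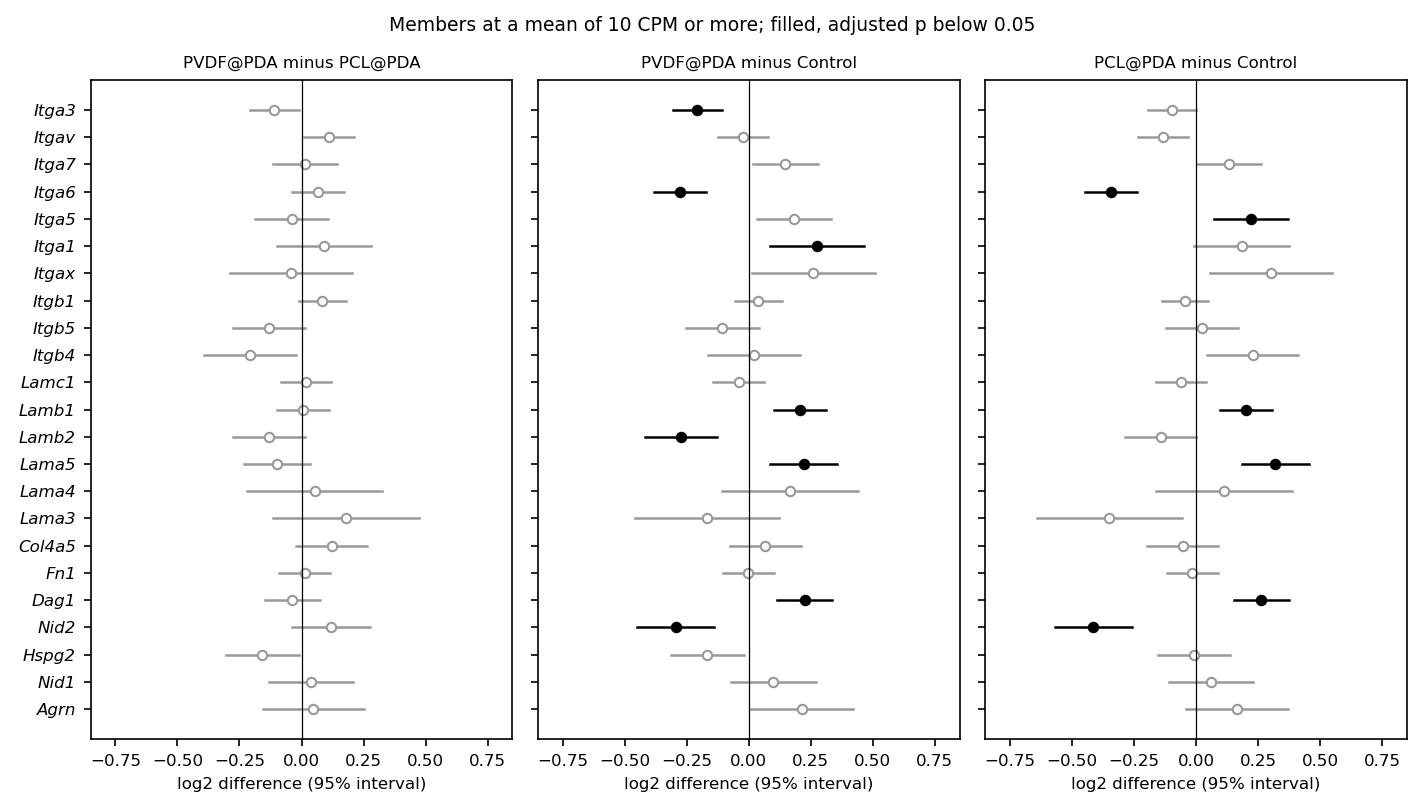
Log2 difference with its 95% interval for members with a mean of 10 CPM or more over the 6 libraries, in the 3 comparisons PVDF@PDA minus PCL@PDA, PVDF@PDA minus Control and PCL@PDA minus Control; filled points passed the test. The called genes drawn lie between -0.41 and 0.32, and no point is filled in the comparison of the materials.

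Among the integrin alpha chains, which set ligand choice, Itga3 dominated. The alpha 3 chain pairs with beta 1 as a laminin receptor, and Itga3 made up 66.7% to 70.4% of the summed alpha chain FPKM in the 6 libraries. Next came Itgav at a mean of 74.8 FPKM, the alpha chain of receptors for fibronectin, vitronectin and other ligands with an RGD sequence, then Itga7 at 43.0 FPKM and Itga6 at 38.0 FPKM, both laminin receptor chains, and Itga5 at 13.5 FPKM, the fibronectin receptor chain. Itga7 and Itga6 are neighbours whose libraries overlapped in level (38.4 to 48.8 FPKM and 34.8 to 43.1 FPKM). Itga7 was the higher one in every material library (40.6 to 48.8 FPKM, Itga6 34.8 to 36.5 FPKM). In Control the order was reversed, with 38.4 and 40.7 FPKM for Itga7 and 43.1 and 42.8 FPKM for Itga6. Itga1 followed at 3.11 FPKM and Itgax at 1.34 FPKM, while Itgae, Itga2, Itga8, Itga11 and Itga10 averaged 0.0497 to 0.807 FPKM.

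Itga6 was the member with the smallest p in both contrasts against Control. It had 260.1 and 262 CPM in PVDF@PDA, 251 and 248 CPM in PCL@PDA, and 318 and 314 CPM in Control. The 4 material libraries lay below both Control libraries without overlap. Itga6 fell by 0.28 on the log2 scale in PVDF@PDA (SE 0.05, -0.29 and -0.26 in batches 1 and 3, edgeR adjusted p = 9.6e-05) and by 0.34 in PCL@PDA (SE 0.05, -0.34 and -0.34 in batches 1 and 3, edgeR adjusted p = 1.66e-06), and no left-out library removed either call.

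Itga3 had 1798 and 1840.1 CPM in PVDF@PDA, 1855 and 2072 CPM in PCL@PDA, and 2082 and 2117 CPM in Control. Both PVDF@PDA libraries were below all others, and PCL@PDA replicate 3 lay near Control. Itga3 fell by 0.21 in PVDF@PDA against Control (log2, SE 0.05, -0.21 and -0.20 in batches 1 and 3, edgeR adjusted p = 0.00179), a call lost without PVDF@PDA replicate 1 (adjusted p = 0.0605). The difference of PCL@PDA from Control was -0.10 (log2, SE 0.05, edgeR adjusted p = 0.171), and with the replicate block its adjusted p was 0.0489. Without PCL@PDA replicate 3 it was -0.18 (adjusted p = 0.000769). The difference between the materials was itself not called (-0.11, 95% interval -0.21 to -0.01, edgeR adjusted p = 0.530).

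Itga1, a collagen and laminin receptor chain, had 35.8 and 38.5 CPM in PVDF@PDA, 37.0 and 32.8 CPM in PCL@PDA, and 31.1 and 30.4 CPM in Control. It rose by 0.27 in PVDF@PDA against Control (log2, SE 0.09, 0.21 and 0.34 in batches 1 and 3, edgeR adjusted p = 0.0386), but this call was lost without any 1 of the 4 libraries concerned (adjusted p = 0.0756 to 0.320). In PCL@PDA the difference from Control was 0.18 (log2, SE 0.09, edgeR adjusted p = 0.178). The gene Pelo lies within Itga1 in the newer rat annotation, GRCr8, and the counting strand is not given, so reads of the pair may not be separated. Pelo itself differed by -0.05 between PVDF@PDA and Control (log2, edgeR adjusted p = 0.722).

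Itga5 had 68.9 and 71.4 CPM in PVDF@PDA, 68.9 and 75.4 CPM in PCL@PDA, and 58.4 and 65.3 CPM in Control. All material libraries were above both Control libraries. Itga5 rose by 0.22 in PCL@PDA (log2, SE 0.07, 0.24 and 0.21 in batches 1 and 3, edgeR adjusted p = 0.0255), a call lost without PCL@PDA replicate 3 (adjusted p = 0.204) or Control replicate 1 (adjusted p = 0.391). In PVDF@PDA the difference was 0.18 (log2, SE 0.07, edgeR adjusted p = 0.0854), with an adjusted p of 0.0468 under the replicate block and of 0.0270 and 0.0329 without PCL@PDA replicate 1 or 3.

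Itgav had 531 and 559 CPM in PVDF@PDA, 512 and 498 CPM in PCL@PDA, and 555 and 553 CPM in Control. PVDF@PDA overlapped Control, and PCL@PDA was lower than both, by -0.13 against Control (log2, SE 0.05, edgeR adjusted p = 0.0549, 0.0144 with the replicate block and 0.00939 without PCL@PDA replicate 1). Itga7 had 166 and 179.8 CPM in PVDF@PDA, 157 and 185 CPM in PCL@PDA, and 152 and 159.9 CPM in Control, and its differences from Control were 0.15 in PVDF@PDA (edgeR adjusted p = 0.120, and 0.0346 with the replicate block) and 0.13 in PCL@PDA (edgeR adjusted p = 0.151). Without PCL@PDA replicate 1 the Itga7 difference was 0.25 in PCL@PDA (adjusted p = 0.000288), and without either PCL@PDA library the PVDF@PDA difference was called (adjusted p = 0.0161 and 0.0226). The other tested alpha chains were not called. Itgae, Itga2, Itga8, Itga11 and Itga10 had 1 to 146 counts per library, which limits what could be resolved: their standard errors were 0.25 to 1.06 on the log2 scale.

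Itgax, the alpha chain of a leukocyte integrin, was counted at 509 to 774 reads per library over a gene length of 14976 bases, whereas its partner chain, Itgb2, had 0 to 7 counts and the leukocyte genes Itgam, Itgal and Itgad 0 to 7. It had 22.2 and 19.7 CPM in PVDF@PDA, 20.6 and 22.6 CPM in PCL@PDA, and 15.3 and 19.7 CPM in Control. Control replicate 1 was the low library. The difference of PCL@PDA from Control was 0.30 (log2, SE 0.12, edgeR adjusted p = 0.0757, and 0.0406 with the replicate block), and without PCL@PDA replicate 1 it was 0.37 (adjusted p = 0.0372). Without Control replicate 3 both contrasts were called (0.45 in PVDF@PDA, adjusted p = 0.0447, and 0.50 in PCL@PDA, adjusted p = 0.0171).

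Of the integrin beta chains, Itgb1 supplied 95.4% to 96.5% of the summed FPKM. Beta 1 is the common partner of the alpha 1, 3, 5, 6 and 7 chains. Itgb1 had 2658 and 2681 CPM in PVDF@PDA, 2602 and 2434 CPM in PCL@PDA, and 2635 and 2559.8 CPM in Control. PCL@PDA replicate 3 was the lowest library, and the difference from Control was 0.04 in PVDF@PDA (95% interval -0.05 to 0.13) and -0.04 in PCL@PDA (-0.14 to 0.05) on the log2 scale. Itgb5, a partner of alpha v, had 70.7 and 74.5 CPM in PVDF@PDA, 76.9 and 82.1 CPM in PCL@PDA, and 71.9 and 84.4 CPM in Control, where the Control libraries lay far apart and both material groups overlapped them. Itgb4, which pairs with alpha 6, had 37.9 and 41.8 CPM in PVDF@PDA, 41.3 and 50.7 CPM in PCL@PDA, and 37.2 and 41.3 CPM in Control. PCL@PDA replicate 3 alone was high, and the difference of PCL@PDA from Control was 0.23 (log2, SE 0.09, edgeR adjusted p = 0.0744, and 0.0397 with the replicate block). Without PCL@PDA replicate 1 it was 0.37 (adjusted p = 0.00148).

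Itgb6, an epithelial partner of alpha v, was near the detection limit. It had 2 and 7 counts in PVDF@PDA, 5 and 13 counts in PCL@PDA, and 24 and 32 counts in Control, and it entered the test through Control alone. Entry through the group with the higher counts favours a difference in this direction. The ratios and the call below are therefore given as description and not as support for a fall. Per library total, the summed count of PVDF@PDA was 0.167 times that of Control (exact 95% interval 0.0727 to 0.341, counting error only), and that of PCL@PDA 0.328 times (0.181 to 0.566). Itgb6 was called in PVDF@PDA against Control (lower in both batches, edgeR adjusted p = 0.0284) and not in PCL@PDA (edgeR adjusted p = 0.136), and without any 1 of the 4 libraries compared the PVDF@PDA call was lost (adjusted p = 0.0838 to 0.307). Itgb8 had 27 to 43 counts in PVDF@PDA and PCL@PDA and 51 to 82 in Control, without a call, and Itgb7 had 2 to 17 counts throughout. Itgb7 overlaps the tested gene Znf740, and Itgae the tested gene Haspin, in GRCr8.

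**Figure D3:**
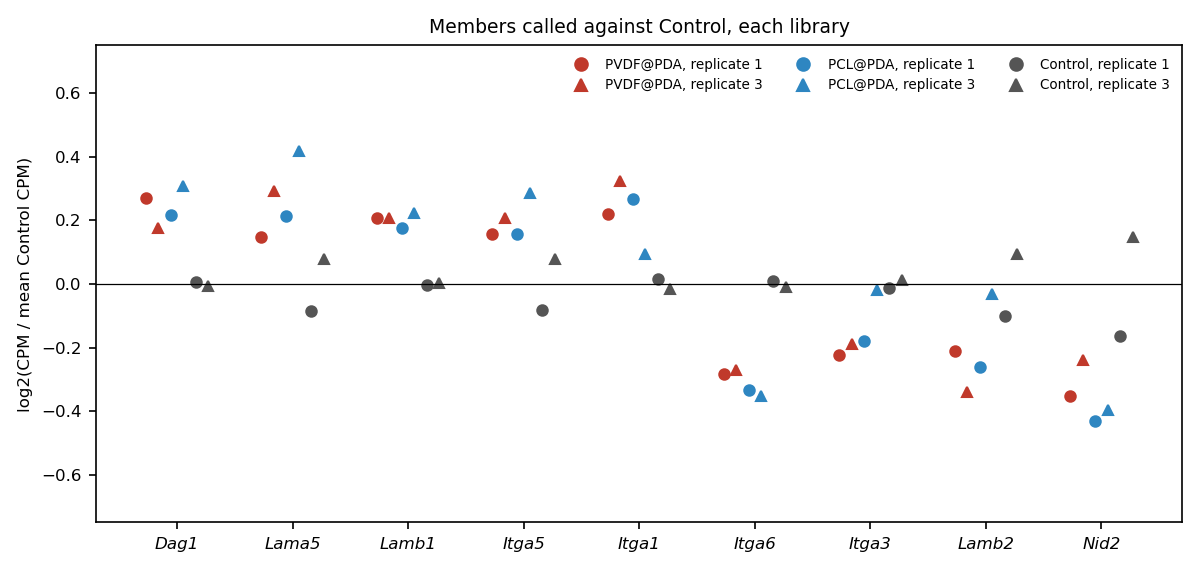
Log2 ratio of the scaled CPM in each library to the Control mean for 9 members called against Control in at least 1 comparison; PVDF@PDA is left, PCL@PDA middle and Control right of each gene, with circles for replicate 1 and triangles for replicate 3, and the line at 0 is the Control mean. For Itga6 and Nid2 the 4 material libraries lie below both Control libraries, and for Dag1, Lama5, Lamb1, Itga5 and Itga1 above them.

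The laminin chains are described with the stretches of DNA before the starts of 2 genes that rose in both materials, Lama5 and Lamb1, and of Itga5, which rose in PCL@PDA, so that they can be compared. The 250 bases before each start are from RefSeq (GRCr8) and run 5′ to 3′ on the gene's strand: Lama5 at chr3:187695975-187696224, minus strand, Lamb1 at chr6:53562846-53563095, plus strand, and Itga5 at chr7:136381306-136381555, minus strand. Capitals mark GC boxes, searched as GGGCGG and, for the other strand, CCGCCC.
Lama5: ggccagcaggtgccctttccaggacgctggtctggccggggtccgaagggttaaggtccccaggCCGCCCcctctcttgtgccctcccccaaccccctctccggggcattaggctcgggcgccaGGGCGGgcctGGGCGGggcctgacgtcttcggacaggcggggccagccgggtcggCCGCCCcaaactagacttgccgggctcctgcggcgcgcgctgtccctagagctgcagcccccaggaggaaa
Lamb1: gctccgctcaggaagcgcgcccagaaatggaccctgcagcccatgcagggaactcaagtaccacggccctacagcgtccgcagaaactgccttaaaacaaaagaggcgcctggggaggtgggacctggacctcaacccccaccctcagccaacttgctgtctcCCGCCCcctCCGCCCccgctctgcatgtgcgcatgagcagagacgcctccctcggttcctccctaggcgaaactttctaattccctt
Itga5: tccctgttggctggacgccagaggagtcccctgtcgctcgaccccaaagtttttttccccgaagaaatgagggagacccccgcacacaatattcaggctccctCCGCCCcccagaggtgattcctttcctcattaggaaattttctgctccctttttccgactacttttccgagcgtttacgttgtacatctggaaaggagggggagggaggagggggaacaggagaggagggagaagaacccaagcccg
The Lama5 stretch held 4 GC boxes at 72.8% GC, that of Lamb1 2 at 62.0% GC and that of Itga5 1 at 55.6% GC. A GC box was found in 30.5% of all 33469 such promoter stretches, with a median of 51.2% GC, and of the 35 members with an entry 20 held one. The hypoxia response core, searched as ACGTG or GCGTG on both strands, was in 36.7% of all stretches and in 12 of the 35 members, and none of these 3 stretches held it. A match of letters is a description and not a site.

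Lamc1 and Lamb1 were the most abundant laminin chains per length, at means of 63.6 and 56.3 FPKM, followed by Lamb2 at 19.9, Lama5 at 12.8 and Lama4 at 2.25 FPKM. Lama5, an alpha chain common in mature basement membranes, supplied 78.4% to 83.4% of the summed alpha chain FPKM. The alpha 2 chain of the mature Schwann cell basal lamina was nearly absent: Lama2 averaged 0.0367 FPKM, with 6 to 24 counts per library, and Lama1 had 1 count in 6 libraries. Lama3 and Lamb3, chains of an epithelial laminin, averaged 0.754 and 1.38 FPKM.

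Lama5 had 141 and 156 CPM in PVDF@PDA, 147 and 169.7 CPM in PCL@PDA, and 119.9 and 134 CPM in Control. All 4 material libraries were above both Control libraries, with replicate 3 the higher library of each pair. Lama5 rose by 0.22 in PVDF@PDA (log2, SE 0.07, 0.23 and 0.21 in batches 1 and 3, edgeR adjusted p = 0.0184) and by 0.32 in PCL@PDA (SE 0.07, 0.30 and 0.34 in batches 1 and 3, edgeR adjusted p = 0.000444). The PVDF@PDA call was lost without PVDF@PDA replicate 3 (adjusted p = 0.332) or Control replicate 1 (adjusted p = 0.315), and the PCL@PDA value was 0.21 (adjusted p = 0.0118) once PCL@PDA replicate 3 was left out.

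Lamb1 had 345 CPM in both PVDF@PDA libraries, 338 and 349 CPM in PCL@PDA, and 298 and 299.9 CPM in Control. The gap between the material libraries and Control was wider than the spread within any pair. Lamb1 rose by 0.21 in PVDF@PDA (log2, SE 0.05, 0.21 and 0.20 in batches 1 and 3, edgeR adjusted p = 0.00316) and by 0.20 in PCL@PDA (SE 0.05, 0.18 and 0.22 in batches 1 and 3, edgeR adjusted p = 0.00349). Leaving out PVDF@PDA replicate 1, PVDF@PDA replicate 3 or Control replicate 1 gave adjusted p = 0.0560 to 0.0666 in PVDF@PDA, and leaving out Control replicate 1 gave 0.0685 in PCL@PDA.

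Lamb2, the other major beta chain, went the other way. It had 106 and 97.1 CPM in PVDF@PDA, 102 and 120.2 CPM in PCL@PDA, and 115 and 131 CPM in Control. PVDF@PDA lay below Control, and PCL@PDA overlapped it. Lamb2 fell by 0.27 in PVDF@PDA (log2, SE 0.07, -0.11 and -0.43 in batches 1 and 3, edgeR adjusted p = 0.00597), a call lost without PVDF@PDA replicate 3 (adjusted p = 0.119) or Control replicate 3 (adjusted p = 0.184). In PCL@PDA the difference from Control was -0.14 (log2, SE 0.07, edgeR adjusted p = 0.165), and it was called without PCL@PDA replicate 3 (-0.27, adjusted p = 0.00223) or Control replicate 1 (-0.24, adjusted p = 0.0492). Lamb2 made up 23.8% and 22.2% of the summed beta chain FPKM in PVDF@PDA, 23.5% and 25.9% in PCL@PDA, and 28.1% and 30.6% in Control. This share also depends on Lamb1, the main part of the sum, which rose in both materials.

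Lamc1, Lama4, Lama3, Lamb3 and Lama2 were not called. Lamc1, the common gamma chain, had 496 and 471 CPM in PVDF@PDA, 477 and 478 CPM in PCL@PDA, and 502 and 493 CPM in Control. Its differences from Control were -0.04 (95% interval -0.14 to 0.06) in PVDF@PDA and -0.06 (-0.16 to 0.04) in PCL@PDA on the log2 scale. Lama4, an alpha chain also found around vessels and nerve, had 14.1 and 14.4 CPM in PVDF@PDA, 13.5 and 14.0 CPM in PCL@PDA, and 12.4 and 13.0 CPM in Control, with differences from Control of 0.17 in PVDF@PDA (SE 0.14) and 0.11 in PCL@PDA (SE 0.14).

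**Figure D4:**
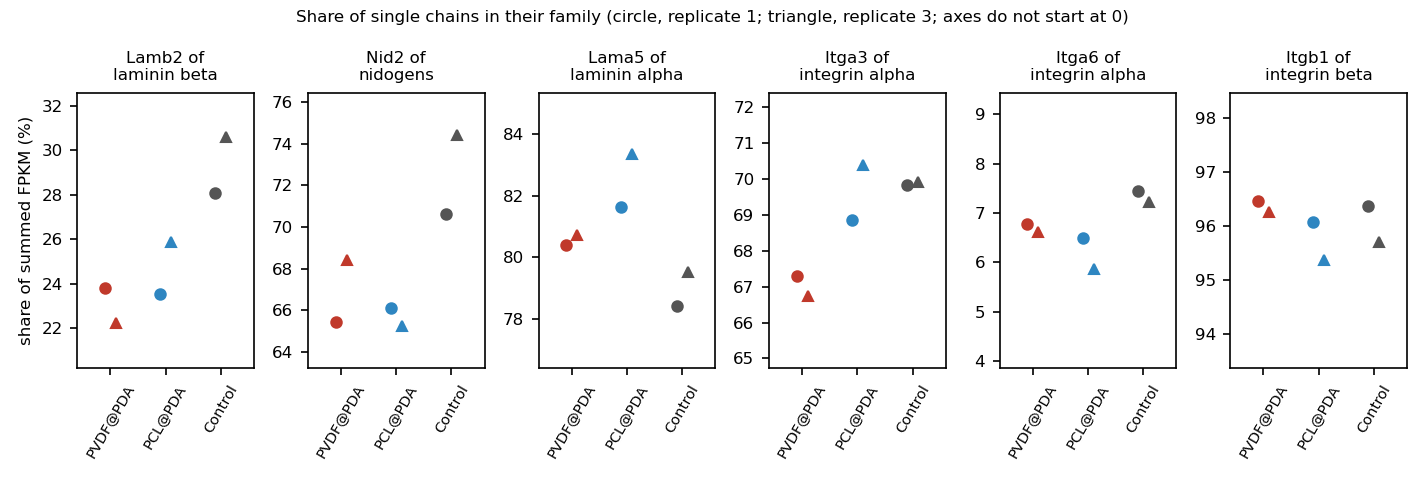
Share of 1 gene in the summed FPKM of its family in each library, one panel per share with its own axis; PVDF@PDA is at the left, PCL@PDA in the middle and Control at the right, with circles for replicate 1 and triangles for replicate 3. Lamb2 takes 22.2% to 25.9% of the laminin beta chains in PVDF@PDA and PCL@PDA against 28.1% to 30.6% in Control, and Nid2 65.3% to 68.4% of the nidogens in PVDF@PDA and PCL@PDA against 70.6% to 74.4% in Control.

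Collagen IV forms the second network of a basal lamina, and its common trimer is built of the alpha 1 and alpha 2 chains. Those chains were not detectable above the floor at this depth. Col4a1 had 2 and 0 counts in PVDF@PDA, 0 in both PCL@PDA libraries, and 1 and 0 in Control, and Col4a2 had 0 and 1 in PVDF@PDA, 0 in both PCL@PDA libraries, and 1 and 0 in Control. All these counts are below that floor of 3 counts. Col4a3 had 5 and 10 counts in PVDF@PDA, 6 and 1 in PCL@PDA, and 1 and 7 in Control, Col4a4 had 0 to 4 counts and Col4a6 0 to 2. Col4a5 had 71.9 and 73.9 CPM in PVDF@PDA, 67.4 and 66.6 CPM in PCL@PDA, and 72.9 and 66.3 CPM in Control, and carried 98.7% to 99.9% of the summed collagen IV FPKM. The groups overlapped around Control, with differences of 0.07 (95% interval -0.08 to 0.21) in PVDF@PDA and -0.05 (-0.20 to 0.09) in PCL@PDA on the log2 scale.

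Col4a1 and Col4a2 lie head to head and share the DNA between their starts, which is set here beside the stretch before Col4a5 because these genes differ most in level within the family. The sequences are from RefSeq (GRCr8), 5′ to 3′, the first at chr16:84885521-84885596, plus strand, 76 bases, and the second at chrX:109907109-109907358, plus strand, 250 bases, with GC boxes in capitals.
Col4a1 and Col4a2: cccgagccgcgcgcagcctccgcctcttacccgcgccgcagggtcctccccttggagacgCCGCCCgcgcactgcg
Col4a5: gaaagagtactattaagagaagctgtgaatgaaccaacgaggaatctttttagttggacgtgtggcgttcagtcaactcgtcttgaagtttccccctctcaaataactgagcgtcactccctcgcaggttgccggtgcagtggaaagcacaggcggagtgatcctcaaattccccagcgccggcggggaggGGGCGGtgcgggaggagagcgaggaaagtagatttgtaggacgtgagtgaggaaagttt
Each held 1 GC box, and 18.1% of all stretches of 76 bases just before a start held one. The stretch of Col4a5 also held 2 hypoxia response cores, the shared one 0. The motifs did not overlap each other in any sequence shown.

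Of the linking genes, Fn1 (fibronectin, a ligand of alpha 5 beta 1 and alpha v integrins) was the most abundant at a mean of 60.6 FPKM, then Dag1 at 41.8, Nid2 at 16.0, Hspg2 at 14.3, Nid1 at 7.31 and Agrn at 3.18 FPKM. Nid2 and Hspg2 are neighbours whose libraries overlapped in level (13.9 to 20.4 FPKM and 12.7 to 16.5 FPKM).

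Dag1, which encodes both subunits of the laminin receptor dystroglycan, had 251 and 235 CPM in PVDF@PDA, 242 and 258 CPM in PCL@PDA, and 209 and 207 CPM in Control. All material libraries were above Control. Dag1 rose by 0.22 in PVDF@PDA (log2, SE 0.06, 0.27 and 0.18 in batches 1 and 3, edgeR adjusted p = 0.00276) and by 0.26 in PCL@PDA (SE 0.06, 0.21 and 0.31 in batches 1 and 3, edgeR adjusted p = 0.000341). The PVDF@PDA call was lost without PVDF@PDA replicate 1 (adjusted p = 0.136), and no left-out library removed the PCL@PDA call.

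Nid2, one of the nidogens that bridge laminin and collagen IV, had 69.8 and 75.5 CPM in PVDF@PDA, 66.1 and 67.6 CPM in PCL@PDA, and 79.4 and 98.6 CPM in Control. Control replicate 3 was the highest library by a wide margin, yet the material libraries were also below Control replicate 1. Nid2 fell by 0.29 in PVDF@PDA (log2, SE 0.08, -0.19 and -0.39 in batches 1 and 3, edgeR adjusted p = 0.00597) and by 0.41 in PCL@PDA (SE 0.08, -0.27 and -0.54 in batches 1 and 3, edgeR adjusted p = 9.55e-05). Without Control replicate 3 the differences were -0.13 (adjusted p = 0.432) in PVDF@PDA and -0.25 (adjusted p = 0.0499) in PCL@PDA. Without Control replicate 1 the PVDF@PDA difference was -0.44, and without PVDF@PDA replicate 1 its adjusted p was 0.0924. The related Nid1 had 46.3 and 43.7 CPM in PVDF@PDA, 42.5 and 45.1 CPM in PCL@PDA, and 41.5 and 42.5 CPM in Control, with no call.

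Hspg2, which encodes the proteoglycan perlecan, had 186 and 204 CPM in PVDF@PDA, 197 and 239 CPM in PCL@PDA, and 209 and 229.7 CPM in Control. PVDF@PDA lay below Control and PCL@PDA spanned it, and the difference of PVDF@PDA was -0.17 (log2, SE 0.07, edgeR adjusted p = 0.119, and 0.00850 with the replicate block). It was also called without Control replicate 1 or either PCL@PDA library (adjusted p = 0.00308 to 0.0391). Agrn, which encodes the proteoglycan agrin, had 28.6 and 28.5 CPM in PVDF@PDA, 27.6 CPM in both PCL@PDA libraries, and 24.4 and 24.8 CPM in Control. The groups did not overlap, but neither difference was called (0.21 in PVDF@PDA, edgeR adjusted p = 0.155, and 0.17 in PCL@PDA, edgeR adjusted p = 0.276). Fn1 had 498 and 516 CPM in PVDF@PDA, 485 and 519 CPM in PCL@PDA, and 511 and 504 CPM in Control, and its 95% intervals against Control ran from -0.11 to 0.10 in PVDF@PDA and from -0.12 to 0.09 in PCL@PDA on the log2 scale.

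Between PVDF@PDA and PCL@PDA no member was called, and the smallest adjusted p was 0.530 by edgeR. DESeq2 also called 0. At an unadjusted p below 0.05 there were 4 members (Hspg2, Itga3, Itgav and Itgb4) and 1105 of all tested genes. The libraries of the materials did not overlap for 13 of the 34 tested members, or 38.2%, against 38.0% of all tested genes, and the median log2 difference was 0.02. For 25 of the 34 the 95% interval lay within 0.5 of 0 on the log2 scale, and for the other members it reached past 0.5. Over all 13018 tested genes it lay within 0.5 for 8999. Among the genes called against Control, the intervals between the materials were -0.04 to 0.17 for Itga6, -0.10 to 0.11 for Lamb1, -0.15 to 0.07 for Dag1, -0.23 to 0.04 for Lama5, -0.04 to 0.28 for Nid2 and -0.10 to 0.28 for Itga1. Against Control the libraries did not overlap for 21 of 34 members in each contrast, or 61.8%, where all tested genes had 58.5% in PVDF@PDA and 56.2% in PCL@PDA.

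PCL@PDA replicate 3 was the library that stood apart from both PVDF@PDA libraries. The outcome of the comparison of the materials changed only in the fit that left out PCL@PDA replicate 1. Without it, PCL@PDA was represented by replicate 3 alone, whose spread is then assumed to be that of the other groups, and 6 members were called. Itgb1 was 0.13 higher in PVDF@PDA (log2, adjusted p = 0.0299). Hspg2 (-0.29, adjusted p = 0.000141), Itga3 (-0.19, adjusted p = 0.00105), Lamb2 (-0.24, adjusted p = 0.0113), Itgb4 (-0.35, adjusted p = 0.0137) and Lama5 (-0.20, adjusted p = 0.0336) were lower. In the same setting 827 of all tested genes were called.

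The genes that work with these receptors and matrix proteins were examined as 4 lists. Of the integrin adhesion machinery, the cytoplasmic proteins and partners that tie integrins to actin and signalling, 33 of 35 genes were tested. None was called between the materials. In PVDF@PDA against Control 2 rose and 5 fell, and in PCL@PDA 7 rose and 5 fell. That is 21.2% of the tested list in PVDF@PDA and 36.4% in PCL@PDA, where all tested genes had 15.7% and 20.1% in these contrasts. The median log2 difference of the list was 0.02 in PVDF@PDA and 0.01 in PCL@PDA. Tns3, a tensin adaptor, had 124 and 120.4 CPM in PVDF@PDA, 126 and 137 CPM in PCL@PDA, and 166 and 173 CPM in Control, and fell by 0.48 in PVDF@PDA (log2, SE 0.06, edgeR adjusted p = 2.5e-08) and by 0.37 in PCL@PDA (SE 0.06, edgeR adjusted p = 4.25e-06). Src, a tyrosine kinase that signals from integrin adhesions, had 38.4 and 38.6 CPM in PVDF@PDA, 39.2 and 44.9 CPM in PCL@PDA, and 54.5 and 60.7 CPM in Control, and fell by 0.58 in PVDF@PDA (log2, SE 0.09, edgeR adjusted p = 7.87e-07) and by 0.45 in PCL@PDA (SE 0.09, edgeR adjusted p = 5.96e-05). No left-out library removed a call of either gene. Kank2, a talin-binding protein, rose by 0.21 in PVDF@PDA and 0.26 in PCL@PDA (edgeR adjusted p = 0.00588 and 0.000575). Tln2, a talin that activates integrins, rose by 0.23 in PVDF@PDA and 0.36 in PCL@PDA (edgeR adjusted p = 0.0106 and 3.47e-05). Kank2 was lost without Control replicate 1 in both (adjusted p = 0.186 in PVDF@PDA and 0.0612 in PCL@PDA) and without PVDF@PDA replicate 1 (0.129), and Tln2 in PVDF@PDA without PVDF@PDA replicate 1 (0.232) or Control replicate 3 (0.185). The other calls were Vcl, Ptk2 and Pxn, lower in PVDF@PDA (-0.20 to -0.16), Vcl, Ptk2 and Cd47, lower in PCL@PDA (-0.21 to -0.15), and Zyx, Flna, Cd81, Parvb and Actn4, higher in PCL@PDA (0.15 to 0.28). Of these, Flna in PCL@PDA remained without each library in turn, at 0.14 without PCL@PDA replicate 3, and each other call was lost without at least 1 library (adjusted p = 0.0546 to 0.457). With 1 library left out, the PVDF@PDA list count fell to 3 or 4 without either of its own or either Control library and was 11 or 12 without a PCL@PDA library. The PCL@PDA count was 6 without Control replicate 1, and with the replicate block the PVDF@PDA count was 12.

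Of the dystroglycan complex and its glycosylation enzymes 28 of 33 genes were tested, with no call between the materials. In PVDF@PDA 1 rose and 2 fell against Control, and in PCL@PDA 2 rose and 2 fell (10.7% of the tested list in PVDF@PDA against 15.7% of all tested genes, and 14.3% in PCL@PDA against 20.1%), with median log2 differences of -0.10 in PVDF@PDA and -0.07 in PCL@PDA. Sntb2, a syntrophin adaptor of the complex, had 34.7 and 35.3 CPM in PVDF@PDA, 33.6 and 34.9 CPM in PCL@PDA, and 26.8 and 25.9 CPM in Control, and rose by 0.41 in PVDF@PDA (log2, SE 0.10, edgeR adjusted p = 0.00149) and by 0.38 in PCL@PDA (SE 0.10, edgeR adjusted p = 0.00280). Dtnb, a dystrobrevin, fell by 0.36 in PVDF@PDA (edgeR adjusted p = 0.00926, lost without PVDF@PDA replicate 1 or Control replicate 3 at 0.271 and 0.0966) and by 0.40 in PCL@PDA (edgeR adjusted p = 0.00333). Prx, periaxin of the myelinating Schwann cell, fell by 0.46 in PVDF@PDA (edgeR adjusted p = 0.00313), a call lost without PVDF@PDA replicate 3 (0.108) or Control replicate 3 (0.0552). In PCL@PDA, Pomk, a kinase of dystroglycan glycans, rose by 0.67 (edgeR adjusted p = 0.0109) and Utrn, utrophin, fell by 0.21 (edgeR adjusted p = 0.0382). Pomk was lost without Control replicate 1 (0.273) or PCL@PDA replicate 3 (0.0589), and Utrn without any library but PCL@PDA replicate 1 (0.0560 to 0.167). The PVDF@PDA list count was 7 without either PCL@PDA library and 6 with the replicate block, and the PCL@PDA count 2 without Control replicate 1 or PCL@PDA replicate 3.

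Of the other basement membrane and linked matrix genes 20 of 33 were tested, again with no call between the materials. In PVDF@PDA 5 rose and 1 fell against Control and in PCL@PDA 5 rose and none fell (30.0% of the tested list in PVDF@PDA against 15.7% of all tested genes, and 25.0% in PCL@PDA against 20.1%), with median log2 differences of 0.23 in PVDF@PDA and 0.14 in PCL@PDA. Tinagl1, Gpc1, Sdc1, Loxl2 and Vwa1 were called higher in PVDF@PDA and in PCL@PDA. Tinagl1, a laminin-binding matrix protein, had 45.1 and 47.3 CPM in PVDF@PDA, 43.4 and 53.2 CPM in PCL@PDA, and 36.2 and 33.6 CPM in Control, and rose by 0.40 in PVDF@PDA (log2, SE 0.09, edgeR adjusted p = 0.000948) and by 0.47 in PCL@PDA (SE 0.09, edgeR adjusted p = 0.000103, and 0.31 without PCL@PDA replicate 3). Vwa1, a perlecan-binding protein, had 5.19 and 5.55 CPM in PVDF@PDA, 7.35 and 8.38 CPM in PCL@PDA, and 2.37 and 3.99 CPM in Control, and rose by 0.75 in PVDF@PDA (log2, SE 0.23, edgeR adjusted p = 0.0166) and by 1.30 in PCL@PDA (SE 0.22, edgeR adjusted p = 1.48e-05). In PVDF@PDA, Vwa1 was lost without PVDF@PDA replicate 3 (0.102) or Control replicate 1 (0.357), and its value was 1.17 without Control replicate 3. Gpc1, a heparan sulfate proteoglycan, was low, at 1.94 and 2.45 CPM in PVDF@PDA, 2.11 and 2.34 CPM in PCL@PDA, and 0.960 and 0.430 CPM in Control. Gpc1 rose by 1.66 in PVDF@PDA and 1.68 in PCL@PDA (edgeR adjusted p = 0.00366 and 0.00259). In batches 1 and 3 the differences were 1.02 and 2.51 in PVDF@PDA and 1.14 and 2.44 in PCL@PDA. Both calls were lost without Control replicate 3 (1.19 in PVDF@PDA and 1.21 in PCL@PDA). Sdc1, another such proteoglycan, rose by 0.19 in PVDF@PDA and 0.22 in PCL@PDA (edgeR adjusted p = 0.0110 and 0.00288), and Loxl2, a collagen crosslinking enzyme, by 0.27 in PVDF@PDA and 0.32 in PCL@PDA (edgeR adjusted p = 0.0113 and 0.00186). Without Control replicate 1 both were lost in both contrasts (Sdc1 at 0.247 in PVDF@PDA and 0.139 in PCL@PDA, Loxl2 at 0.360 in PVDF@PDA and 0.176 in PCL@PDA). In PVDF@PDA they and Gpc1 were also lost without PVDF@PDA replicate 3, and Sdc1 and Loxl2 without PVDF@PDA replicate 1 (0.0534 to 0.141 in all). The gene that fell in PVDF@PDA was Sparc (-0.22, edgeR adjusted p = 0.0253), lost without either PVDF@PDA library or Control replicate 3 (0.123 to 0.298). The PVDF@PDA count fell to 1 without PVDF@PDA replicate 3 and to 3 without PVDF@PDA replicate 1 or Control replicate 1, and the PCL@PDA count to 3 without Control replicate 1.

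**Figure D5:**
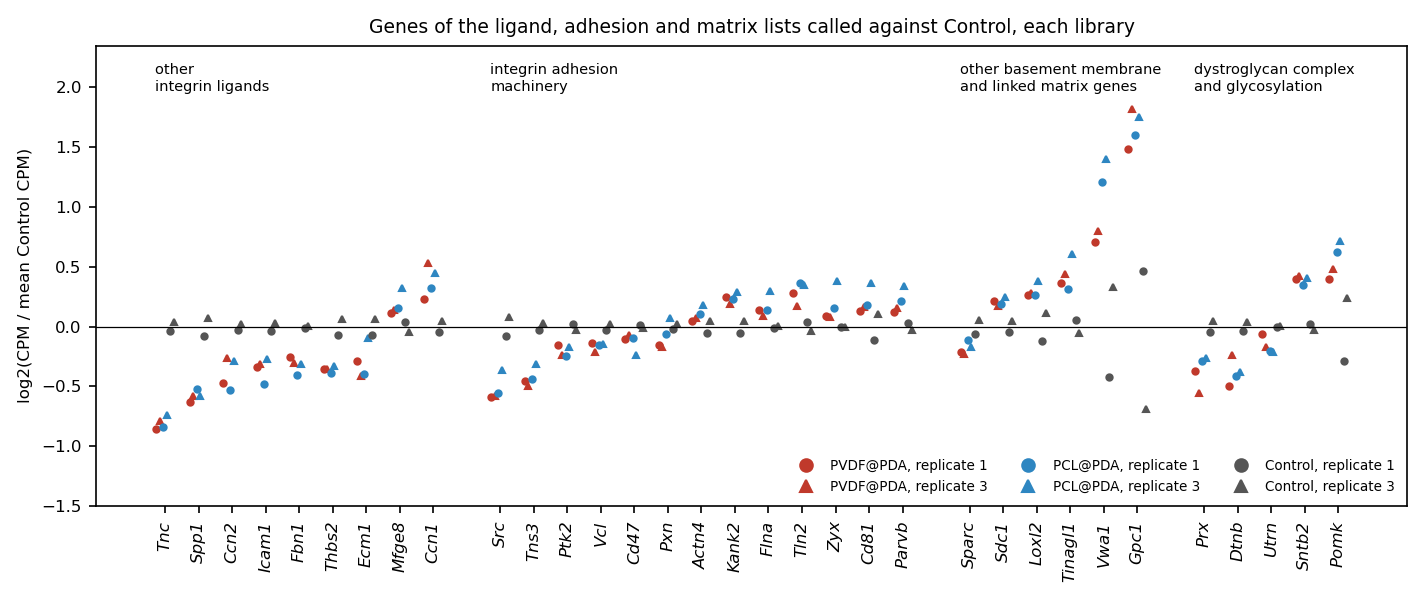
Log2 ratio of the scaled CPM in each library to the Control mean for list genes called against Control in at least 1 comparison, PVDF@PDA left, PCL@PDA middle and Control right of each gene; circles are replicate 1 and triangles replicate 3. Tnc and Spp1 lie lowest among the integrin ligands and Gpc1 and Vwa1 highest among the basement membrane genes.

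Among the 4 lists, the other ligands of integrins held the largest falls. Of 30 genes 21 were tested, none was called between the materials, 1 rose and 7 fell in PVDF@PDA against Control, and 2 rose and 7 fell in PCL@PDA. That is 38.1% of the tested list in PVDF@PDA against 15.7% of all tested genes, and 42.9% in PCL@PDA against 20.1%. The median log2 difference was 0.002 in PVDF@PDA and -0.04 in PCL@PDA. Tnc, the matrix protein tenascin C, had 793 and 832 CPM in PVDF@PDA, 805 and 859 CPM in PCL@PDA, and 1398 and 1476 CPM in Control, and fell by 0.82 in PVDF@PDA (log2, SE 0.05, edgeR adjusted p = 1.08e-18) and by 0.79 in PCL@PDA (SE 0.05, edgeR adjusted p = 2.33e-18). Spp1, the RGD-bearing osteopontin, had 313 and 324 CPM in PVDF@PDA, 337 and 325 CPM in PCL@PDA, and 459 and 511 CPM in Control, and fell by 0.60 in PVDF@PDA (log2, SE 0.05, edgeR adjusted p = 1.21e-12) and by 0.55 in PCL@PDA (SE 0.05, edgeR adjusted p = 1.55e-11). The material libraries lay far below Control for both. Thbs2, a thrombospondin, fell by 0.35 in PVDF@PDA and 0.36 in PCL@PDA (edgeR adjusted p = 1.1e-06 and 5.44e-07), and Fbn1, the microfibril protein fibrillin 1, by 0.28 in PVDF@PDA and 0.36 in PCL@PDA (edgeR adjusted p = 5.45e-05 and 4.25e-07). Icam1, an adhesion ligand of leukocyte integrins, fell by 0.33 in PVDF@PDA and 0.37 in PCL@PDA. Ccn2 fell by 0.36 in PVDF@PDA and 0.40 in PCL@PDA, while the related matricellular gene Ccn1 rose by 0.39 in PVDF@PDA and 0.38 in PCL@PDA. Ecm1 fell by 0.35 in PVDF@PDA and 0.24 in PCL@PDA, and Mfge8 rose by 0.24 in PCL@PDA. In PVDF@PDA, Ccn2 was lost without PVDF@PDA replicate 1 (edgeR adjusted p = 0.105) and Ecm1 without PVDF@PDA replicate 3 or Control replicate 3 (0.0549 and 0.0505), and Ccn1 was 0.23 without PVDF@PDA replicate 3. In PCL@PDA, Ccn1 was lost without PCL@PDA replicate 3 (0.165), Mfge8 without Control replicate 3 or PCL@PDA replicate 3 (0.0714 and 0.0582) and Ecm1 without Control replicate 3 or PCL@PDA replicate 1 (0.284 and 0.433). Leaving out any 1 library left 7 to 9 calls in each contrast, and the calls of Tnc, Spp1, Thbs2 and Fbn1 remained each time.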

How the data were processed

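The report covers RNA from 6 libraries of RSC96 cells in 3 groups, assigned by title, made from column-purified, DNase-treated total RNA per the labels' protocols. The deposited table holds whole-number read counts per gene, and the authors' 6 further tables hold FPKM, which equal the count divided by 1 gene length and the library total (relative tolerance 0.0001) in each of the 15690 genes with counts in 2 or more libraries. The submitters' processing notes list DESeq2 1.4.5 and the assembly mRatBN7.2 but not what each was used for. The aligner, counter, annotation and strand setting were not given in the sources used here.

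The counts of all genes entered a robust quasi-likelihood fit of 3 group means over 6 libraries (edgeR 4.0.16 in R 4.3.3, TMM scaling, filterByExpr on the groups, 3 residual degrees of freedom), in which 13018 genes were tested and 3831 had too few counts. Pairs of groups were set against each other with its F test, 2-sided, with Benjamini-Hochberg adjustment over all genes tested, and genes below 0.05 were called. Adjusted p-values without another name come from that test. Genes had a biological coefficient of variation of 6.47%, and 50.3 prior degrees of freedom at the median. Log2 differences carry their SE, and levels are TMM-scaled CPM. The labels do not say that libraries came from separate cultures, so p-values measure only the spread between these libraries, which may be technical. Intervals of count ratios and the floor of 3 counts cover counting error only.

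Replicates 1 and 3 carry the labels batch 1 and batch 3, which pairs them across groups. Deviations of same-numbered libraries correlated across genes at 0.0176 between the materials, 0.0561 for PVDF@PDA and Control, and 0.132 for PCL@PDA and Control. The replicate block was therefore an alternative fit. Other alternatives were RLE factors, library totals alone, no filter on low counts, only the 4 libraries compared, a non-robust fit, removal of a length trend, DESeq2 1.42.0, limma 3.58.1 on log2(FPKM + 1) and log2(FPKM + 0.1), and each library left out in turn.

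The members and lists were chosen with earlier results of these data known. Some results are not reported here. Otherwise values per library are given for members called in at least 1 comparison, the 3 most abundant of each integrin, laminin and collagen IV family, and the linking genes. Per list the 4 genes with the smallest p per comparison were to be named; further called list genes, Itgax, Itgb7 and Itgb8 and other low members were added after their values were seen. The newer annotation GRCr8 matched all 47 gene IDs and gave overlapping genes and promoter sequences (35 of 47 members).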

Additional observations from a re-analysis of the deposited data

How the results depend on the processing

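Over the 3 comparisons and 16 alternatives, 1523 member results kept their side of the threshold, 37 gained a call, 66 lost one and none changed sign with a call. RLE factors, the non-robust fit and removal of the length trend gave the same 10 called members for PVDF@PDA and the same 7 for PCL@PDA against Control. The replicate block, which pairs libraries by batch, gave 13 members for PVDF@PDA and 11 for PCL@PDA against Control, and 0 between the materials. With library totals alone there were 11 (5 higher, 6 lower) and 8 (6 higher, 2 lower, where the main fit had 4 and 3). limma on log2(FPKM + 1) called 0 and 1, and on log2(FPKM + 0.1) 0 and 0; it called 535 and 860, then 79 and 140, of all genes, against 2042 and 2616. DESeq2 called 8 and 6, with Itga1 (adjusted p = 0.0709) among the calls lost for PVDF@PDA and Itga5 (0.0521) among those lost for PCL@PDA, where it added Itgav (-0.13, 0.0227), and gave no adjusted p for Itgb6. Without any filter Itgb6 was lost (0.0575). Leaving out each library gave 4 to 13 members for PVDF@PDA and 5 to 10 for PCL@PDA against Control and 0 to 6 between the materials.

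Between the materials the 8 genes called of all tested were 0 to 827 with a library left out, 59 with the replicate block, 17 without a filter, 5 with library totals alone and with DESeq2, and 0 with limma. Against Control, leaving out a library gave 1031 to 2869 genes for PVDF@PDA and 1346 to 3173 for PCL@PDA.

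For the lists (adhesion machinery, dystroglycan complex, basement membrane, ligands), limma on log2(FPKM + 1) called 2, 1, 1 and 2 for PVDF@PDA and 1, 1, 2 and 3 for PCL@PDA against Control, and on log2(FPKM + 0.1) 0, 0, 0 and 1 for each. The machinery had 12 for PVDF@PDA with the replicate block and 11 with only the 4 libraries compared, and the dystroglycan list 6 and 7. Leaving out each library gave 3 to 12, 2 to 7, 1 to 7 and 7 to 9 for PVDF@PDA, 6 to 16, 2 to 4, 3 to 6 and 7 to 9 for PCL@PDA, and 0 to 6, 0 to 1, 0 and 0 to 3 between the materials. The cause of these changes was not tested, beyond the fewer libraries of each left-out fit. At this depth 13 members had too few counts to test. Between the materials 25 of 34 member intervals lay within 0.5 (log2), against 8999 of 13018 over all tested genes.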
